A study of Mus musculus with 4 samples.

Results

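The cytoplasmic ribosomal protein genes code for the proteins that, with the ribosomal RNAs, make up the ribosome of the cytoplasm. They were taken as the protein-coding GENCODE M21 genes on chromosomes 1 to 19 whose symbol is Rpl or Rps with a number and at most 1 letter a, x or l after it, together with Rplp0, Rplp1, Rplp2 and Rpsa. This gave 76 genes, 46 of the large and 30 of the small subunit, of 20807 protein-coding genes on these chromosomes. The rule used names and positions, and no measured value.

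The RNA bound by 1 of 3 reader proteins was sequenced, in 1 library each for IGF2BP2, YTHDF2 and YTHDC1, with 1 input library that went through no antibody. All 4 libraries came from mouse lin- c-Kit+ cells of the bone marrow, which carry few or no markers of mature blood cells and carry the stem cell factor receptor. The labels call these cells LIC, which they do not spell out, and the title of the series speaks of acute myeloid leukaemia stem cells. No driver of the leukaemia, strain, age or number of animals is given in the sources used here. The cells were kept in medium with serum, IL-3, IL-6 and stem cell factor, irradiated with UV light of 254 nm at 120 mJ per cm2 in 3 exposures, lysed and sonicated. Amplification took 20 cycles, and fragments of 250 to 450 bp were kept. Each reader thus has 1 library, no difference has a replicate check, no test was made, and each interval given is an exact binomial 95% interval that covers counting error only.

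Ribosomal protein mRNAs are short, abundant and among the most heavily translated of a cell, and many of their introns hold small nucleolar RNAs (snoRNAs). They belong to the TOP mRNAs, which begin with a C and a run of pyrimidines, and the cell adjusts their translation together through mTORC1 and LARP1. The mark m6A is a methyl group on adenosine. IGF2BP2 is known as a cytoplasmic reader that stabilises mRNA, YTHDF2 as a cytoplasmic reader that promotes decay, and YTHDC1 as a nuclear reader tied to splicing and export.

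There were 7069 IGF2BP2, 2834 YTHDF2 and 9963 YTHDC1 peaks in the lists, and the sequencing depth is unknown. Of 8 genes that mark lin- c-Kit+ cells, IGF2BP2 had a peak in 2, YTHDF2 in 1 and YTHDC1 in 4. Of 12 markers of mature lineages, 1, 0 and 2 did. The shares over all protein-coding genes were 12.8%, 7.2% and 19.9%, and the marker counts are too small to set the 2 lists apart. Kit had a peak of YTHDC1 alone, with a fold of 4.91, and Myb had peaks of all 3 readers, up to a fold of 46.9 for IGF2BP2. Among the lineage markers, Klrb1c had a YTHDC1 peak with a fold of 15.7. Itgam had an IGF2BP2 peak with a fold of 4.93 and a YTHDC1 peak with a fold of 7.73. Both YTHDC1 folds were above that of Kit. A peak list holds no expression level, so it cannot show whether a marker without a peak was absent from the cells.

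The sequences under the peaks come first, since the peaks of ribosomal protein genes lay for the most part in the coding sequence (CDS) and were often shared by the readers. The lines below give 7 of the 8 genes whose shared peaks ranked highest by fold in all 3 lists at once, among places where all 3 summits lie in the main transcript, as the spliced main transcript around the middle one of the 3 summits. Each runs 5′ to 3′ with its GRCm38 span and strand and comes from the GENCODE M21 transcripts. Each has 50 bases of coding sequence on either side of the summit, except that of Rpl41, which lies in the 3' UTR and was kept to 29 bases. Capitals mark GGAC, the core of the best known m6A motif.
Rpl3, chr15:80080409-80080509 (-): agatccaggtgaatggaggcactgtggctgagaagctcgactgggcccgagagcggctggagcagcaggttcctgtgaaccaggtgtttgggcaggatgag
Rpl7, chr1:16103510-16103610 (-): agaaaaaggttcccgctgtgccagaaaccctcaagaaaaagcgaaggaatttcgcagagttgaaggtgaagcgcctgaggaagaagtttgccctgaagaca
Rpl4, chr9:64178307-64178407 (+): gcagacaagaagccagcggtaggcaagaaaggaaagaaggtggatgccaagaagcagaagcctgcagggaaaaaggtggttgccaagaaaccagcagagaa
Rps9, chr7:3704659-3704759 (+): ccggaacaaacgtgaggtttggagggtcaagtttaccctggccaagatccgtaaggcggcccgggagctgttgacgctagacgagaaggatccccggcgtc
Rps15, chr10:80293668-80293768 (+): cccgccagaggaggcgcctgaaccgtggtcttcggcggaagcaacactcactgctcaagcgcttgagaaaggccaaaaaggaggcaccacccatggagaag
Rpl41, chr10:128548317-128548345 (-): gggatgctgagggccgGGACaagctatcg
Rps2, chr17:24720335-24720435 (+): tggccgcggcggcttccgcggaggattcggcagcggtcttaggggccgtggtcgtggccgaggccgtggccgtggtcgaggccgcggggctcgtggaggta
Of these 7 windows, that of Rpl41 alone held GGAC. The window of Rps2 was 75.2% G and C. The summits of the 3 readers lay within 1 nt of each other in Rpl7, within 2 nt in Rpl41 and within 53 nt in Rps15, the widest of the 7.

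Ribosomal protein genes had peaks more often than protein-coding genes as a whole in each of the 3 lists. IGF2BP2 had at least 1 peak in 33 of the 76 genes (43.4%, interval 32.1 to 55.3%), against 12.8% of all protein-coding genes. YTHDF2 had one in 27 (35.5%, interval 24.9 to 47.3%), against 7.2% of all. YTHDC1 had one in 39 (51.3%, interval 39.6 to 63.0%), against 19.9% of all. Peaks of all 3 readers were found in 19 of the 76 (25%, interval 15.8 to 36.3%), against 5.02% of all, and a peak of any reader in 50 (65.8%), against 23.9% of all. The lower bound of each of these 4 intervals lay above the share of all genes. With exonic summits alone the counts were 30 for IGF2BP2, 26 for YTHDF2 and 33 for YTHDC1, beside 9.88%, 5.86% and 13.5% of all genes. With a −log10 q of at least 5 they were 30, 23 and 33, beside 10.9%, 5.72% and 15.3% of all.

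Both of the following settings gave fewer genes with peaks of all 3 readers. With each list cut to the length of the shortest, by q, the genes with a peak were 16 for IGF2BP2 (21.1%, interval 12.5 to 31.9%), against 5.94% of all, and 22 for YTHDC1 (28.9%, interval 19.1 to 40.5%), against 7.83% of all, while the YTHDF2 list stayed as it was at 7.2% of all. All 3 readers then had peaks in 12 (15.8%, interval 8.43 to 26.0%), against 2.59% of all. When exonic summits whose central 51 bases are found whole in another gene were left out, a step added after the data were seen, IGF2BP2 had a peak in 21 (27.6%, interval 18.0 to 39.1%), against 12.5% of all. YTHDF2 had one in 12 (15.8%, interval 8.43 to 26.0%), against 6.94%, and YTHDC1 in 33 (43.4%, interval 32.1 to 55.3%), against 19.6%. All 3 readers had peaks in 6 (7.89%, interval 2.95 to 16.4%), against 4.78% of all, which lies within the interval.

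The genes are short, and shorter transcripts offer fewer bases for a peak. Their main transcripts had a median spliced length of 768 nt, with a range of 345 to 3706 nt, against a median of 2417 nt over all protein-coding genes. Among the 2844 protein-coding genes whose length fell between the quartiles of the ribosomal protein genes, IGF2BP2 had a peak in 2.78%, YTHDF2 in 1.97% and YTHDC1 in 5.13%. Transcript abundance, which the lists do not hold, was matched neither here nor against all protein-coding genes. Its part in how often these genes had peaks was not tested. Within the ribosomal protein genes, the 50 with a peak had a median length of 843 nt, and the 26 without had 652.5 nt.

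The shares of the 2 subunits with a peak of a given reader lay close together. Of the 46 large subunit genes, IGF2BP2 had a peak in 20, YTHDF2 in 17 and YTHDC1 in 25 (43.5%, 37.0% and 54.3%). Of the 30 small subunit genes, the counts were 13, 10 and 14 (43.3%, 33.3% and 46.7%). Peaks of all 3 readers were found in 11 large and 8 small subunit genes, 23.9% and 26.7% of their number. A peak of any reader was found in 33 large (71.7%, interval 56.5 to 84.0%) and 17 small subunit genes (56.7%, interval 37.4 to 74.5%). For each reader the interval of the large subunit's share overlapped that of the small subunit.

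**Figure D1:**
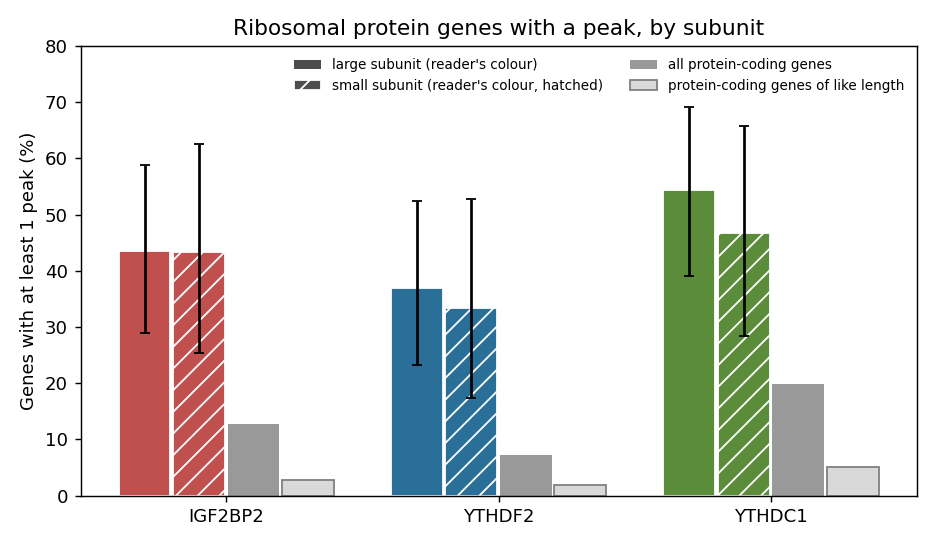
Share of genes with at least 1 peak (y axis, %) for IGF2BP2, YTHDF2 and YTHDC1; coloured bars are the 46 large subunit genes and hatched bars the 30 small subunit genes, with exact binomial 95% intervals that cover counting error only, and grey bars are all 20807 protein-coding genes and the 2844 of like spliced length. Large and small subunit bars stand close together for each reader, at 43.5% and 43.3% for IGF2BP2, and above both grey bars.

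Of the 2 large subunit genes listed near the peptidyl transferase centre, Rpl3 had peaks among the highest of the whole lists. Rpl3, a protein that reaches toward this centre, where peptide bonds are made, had the highest fold of all 76 genes in each list. A fold is the authors' value of how far the reads stacked at a summit, the pileup, exceed the background around it. In exon 5 of 10 Rpl3 had an IGF2BP2 pileup of 70, a YTHDF2 pileup of 52 and a YTHDC1 pileup of 63, with folds of 47.7, 41.1 and 42.9. These folds lay at percentile 99.7, 99.9 and 99.4 of the lists, and the 3 summits fell within 24 nt, in the window printed first above. Rpl8, which also lies near that centre, had no IGF2BP2 peak, while its last exon held a YTHDF2 peak with a pileup of 14 and a fold of 13.7 and a YTHDC1 peak with a pileup of 9 and a fold of 9.68.

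Of 7 proteins at the exit tunnel, through which the growing peptide leaves, 6 had a peak of some reader and 2, Rpl4 and Rpl19, had peaks of all 3. Over all 76 genes these shares were 65.8% and 25%, and over all protein-coding genes 23.9% and 5.02%. The groups by site in the ribosome are too small to set apart from the 76. Rpl4 reaches into the tunnel wall and is one of the longest of these proteins. Its last exon, ahead of the stop codon, had pileups of 37, 17 and 12 and folds of 30.6, 15.1 and 9.78 for IGF2BP2, YTHDF2 and YTHDC1. The window printed for Rpl4 is rich in the lysine codons aag and aaa, and no gene elsewhere held its central 51 bases. A second place in exon 7 of Rpl4 had folds of 12.4, 8.65 and 7.48. At its strongest place Rpl19 had pileups of 6, 4 and 19 and folds of 6.90, 4.94 and 19.6, the last of them the highest YTHDC1 fold of these genes after that of Rpl3. A fold or pileup ranks peaks within a list, and its size was not compared between readers.

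The remaining tunnel genes had fewer peaks. Rpl26 had an IGF2BP2 peak with a fold of 5.91 and a YTHDC1 peak with a fold of 3.92. Rpl35 had IGF2BP2 peaks alone, 2 of them, each with a pileup of 3 and a fold of 3.94. Rpl17 and Rpl31 had YTHDC1 peaks alone, both in introns, and Rpl23a had none.

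Both proteins of the 5S ribonucleoprotein, Rpl5 and Rpl11, which bind the 5S rRNA and can hold Mdm2 away from p53 when assembly fails, had peaks of all 3 readers. In exon 5 of 8, Rpl5 had pileups of 8, 10 and 9 and folds of 6.05, 7.93 and 6.03 for IGF2BP2, YTHDF2 and YTHDC1. Rpl11 had pileups of 8, 7 and 14 and folds of 7.24, 6.70 and 11.3 at a place around exon 3. A second place of Rpl11 had peaks of YTHDF2, with a fold of 11.9, and YTHDC1, with a fold of 7.73.

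The stalk, the flexible arm on which elongation factors dock, was covered unevenly. Rplp2 had pileups of 34, 23 and 49 but folds of only 7.14, 8.45 and 11.7 in its CDS. Rplp1 had no IGF2BP2 peak, a YTHDF2 pileup of 18 with a fold of 7.18, and a YTHDC1 pileup of 36 with a fold of 9.34. Rplp0, which anchors the stalk, had an IGF2BP2 peak alone, with a pileup of 5 and a fold of 5.35, and Rpl12 at the stalk base had none.

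**Figure D2:**
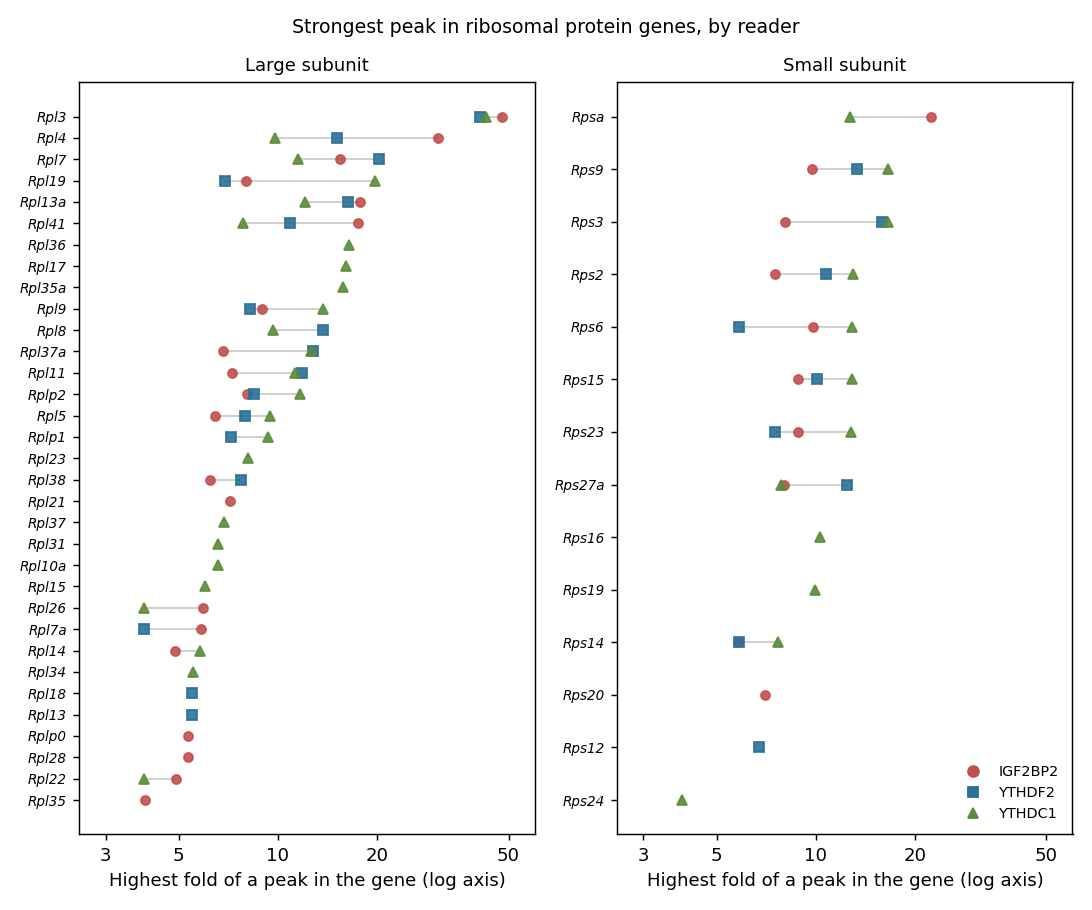
Highest fold of a peak (x axis, log scale, the authors' ratio of pileup over local background) in the ribosomal protein genes shown, large subunit on the left and small subunit on the right; red circles are IGF2BP2, blue squares YTHDF2 and green triangles YTHDC1, and each row with several marks is joined by a grey line. Rpl3 stands apart at 41.1 to 47.7 for all 3 readers, and rows with a lone green triangle, such as Rpl36, are genes with YTHDC1 peaks alone.

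In the small subunit, Rps2, Rps3 and Rps9, which line the entry of the mRNA channel, had peaks of all 3 readers. Rps2 had the highest YTHDC1 pileup of any ribosomal protein gene. Its first coding exon had pileups of 35, 41 and 78 with folds of 7.53, 10.8 and 13.0 for IGF2BP2, YTHDF2 and YTHDC1. Rps3, which also has DNA repair and NF-kappaB related roles outside the ribosome, had pileups of 16, 26 and 50 in exon 5 of 7, with folds of 6.01, 11.0 and 14.7. The background under both genes was high, as described further on. Rps9 had 3 places. At that around exon 3 its pileups were 17, 20 and 18 and its folds 9.71, 13.3 and 9.56. At that in exon 4 its folds were 8.91, 10.9 and 12.9, and in exon 5 YTHDF2 had a fold of 7.54 and YTHDC1 one of 16.6.

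Rps15 and Rps23, listed for the decoding site and head, had peaks of all 3 readers as well. Rps15, whose tail reaches toward the A site, had pileups of 10, 11 and 14 and folds of 8.84, 10.1 and 12.9. Rps23, a protein of the decoding centre, had pileups of 10, 8 and 7 and folds of 8.84, 7.54 and 5.36 at a place near its last exon, where only the YTHDC1 summit lay in the exon. Among proteins of the platform and mRNA exit, Rps14 had peaks of all 3 readers, and Rps26 and Rps28 had none. Rps14, whose human counterpart is lost in the 5q- syndrome, had a place with pileups of 5, 5 and 7 and folds of 5.82, 5.85 and 7.67.

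The other genes with peaks of all 3 readers ranged widely. Rpl7, a protein at the surface of the large subunit, had pileups of 22, 27 and 18 and folds of 15.5, 20.2 and 11.5 in exon 2 of 7. In the YTHDF2 list it came next after Rpl3 in fold. Rpl13a, whose protein leaves the ribosome in interferon-treated monocytes in a human translational control complex, had pileups of 34, 31 and 31 and folds of 17.7, 16.3 and 12.1 in exon 7 of 8. Rpl41, the shortest ribosomal protein, had pileups of 25, 13 and 12 and folds of 17.5, 10.8 and 7.84 in its 3' UTR. In the IGF2BP2 list Rpl13a, Rpl41 and Rpl7 followed Rpl3, Rpl4 and Rpsa in fold.

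Rps6, the target of S6 kinase, had pileups of 10, 6 and 14 and folds of 9.80, 5.86 and 12.9. Rps27a, made as a fusion with ubiquitin, had folds of 4.39, 12.4 and 7.84 at 1 place. Rpl37a had folds of 6.83, 9.81 and 12.6 at 1 place. Rpl9 had peaks of all 3 readers but no place where all 3 overlapped: IGF2BP2 and YTHDF2 met at 1 place with folds of 8.91 and 8.21, and IGF2BP2 and YTHDC1 at another with 8.04 and 13.7. The 19 genes with all 3 readers were Rpl3, Rpl4, Rpl5, Rpl7, Rpl9, Rpl11, Rpl13a, Rpl19, Rpl37a, Rpl41, Rplp2, Rps2, Rps3, Rps6, Rps9, Rps14, Rps15, Rps23 and Rps27a.

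Genes with peaks of a pair of readers were fewer. IGF2BP2 and YTHDC1 shared 6 genes, among them Rpl14, Rpl22, Rpl26 and Rpsa. Rpsa, the laminin receptor protein of the small subunit, was the strongest of these. It had an IGF2BP2 peak in exon 2 of 7 with a pileup of 24 and a fold of 22.3, where neither other reader had a peak. Toward its end Rpsa had YTHDC1 peaks with pileups of 18 and 13 and folds of 12.7 and 9.37. IGF2BP2 and YTHDF2 shared 3, among them Rpl7a and Rpl38. YTHDF2 and YTHDC1 shared Rpl8 and Rplp1.

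Genes with a peak of 1 reader alone were most numerous for YTHDC1. IGF2BP2 alone had 5, Rpl21, Rpl28, Rpl35, Rplp0 and Rps20, with highest folds between 3.94 and 7.13. YTHDF2 alone had 3, Rpl13, Rpl18 and Rps12, with folds of 5.47, 5.47 and 6.70. YTHDC1 alone had 12, Rpl10a, Rpl15, Rpl17, Rpl23, Rpl31, Rpl34, Rpl35a, Rpl36, Rpl37, Rps16, Rps19 and Rps24, with highest folds between 3.93 and 16.5. The strongest of the YTHDC1 genes were Rpl36 with 16.5, Rpl17 with 16.1 and Rpl35a with 15.7. The YTHDC1 list is also the longest of the 3. The share of all protein-coding genes with a peak of 1 reader alone was not set beside these counts. Of the ribosomal protein genes with a YTHDC1 peak, 48.7% had peaks of all 3 readers, against 25.2% in all protein-coding genes. For IGF2BP2 this was 57.6% against 39.2%, and for YTHDF2 70.4% against 69.6%.

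No peak was listed in 26 genes. They included Rpl6, Rpl10l, Rpl12, Rpl23a, Rpl24, Rpl27, Rpl27a, Rpl29, Rpl30, Rpl32, Rpl3l, Rpl39l, Rps7, Rps10, Rps13, Rps15a, Rps18, Rps21, Rps25, Rps26, Rps27, Rps27l, Rps28 and Rps29. Among them are all 3 paralogs known for restricted expression, Rpl3l of muscle and Rpl10l and Rpl39l of testis. Of 9 genes whose human counterparts are mutated in Diamond-Blackfan anaemia, an inherited failure of red cell production, IGF2BP2 had a peak in 3, YTHDF2 in 2 and YTHDC1 in 6. Of all protein-coding genes, 12.8%, 7.2% and 19.9% had one. Rpl5 and Rpl11 had peaks of all 3 readers, and Rps19, Rps24 and Rpl35a of YTHDC1 alone, while Rps7, Rps10 and Rps26 had none.

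The 76 genes held 172 peaks, 59 of IGF2BP2, 48 of YTHDF2 and 65 of YTHDC1. These were 0.835%, 1.69% and 0.652% of the lists. Peaks in ribosomal protein genes were higher than those in protein-coding genes as a whole within the same list. The median fold was 7.05 against 5.91 for IGF2BP2, 8.07 against 5.47 for YTHDF2 and 8.36 against 6.03 for YTHDC1. The median pileup was 7 against 5, 8.5 against 5 and 11 against 6. Rpl4 had the most IGF2BP2 peaks, 4, Rps9 the most YTHDF2 peaks, 4, and Rpl19 the most YTHDC1 peaks, 4.

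Most summits lay in the coding sequence of the main transcript, and few in either UTR. By the main transcript, 37 of 59 IGF2BP2 summits lay in CDS (62.7%), against 61.5% in all protein-coding genes. For YTHDF2 it was 38 of 48 (79.2%), against 60.9% in all, and for YTHDC1 35 of 65 (53.8%), against 35.4% in all. Summits in the 3' UTR numbered 3, 2 and 1 (5.08%, 4.17% and 1.54%), against 3.44%, 7.12% and 7.80% in all. Those in the 5' UTR numbered 0, 0 and 1, against 2.06%, 3.48% and 6.66% in all. The length of the UTRs was not taken into account. When a 3' UTR of any annotated transcript was given precedence, CDS summits numbered 31, 33 and 28 and 3' UTR summits 9, 7 and 10, since other annotated transcripts of these genes place the same bases in a 3' UTR. The Rpl3 peak is one such case.

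**Figure D3:**
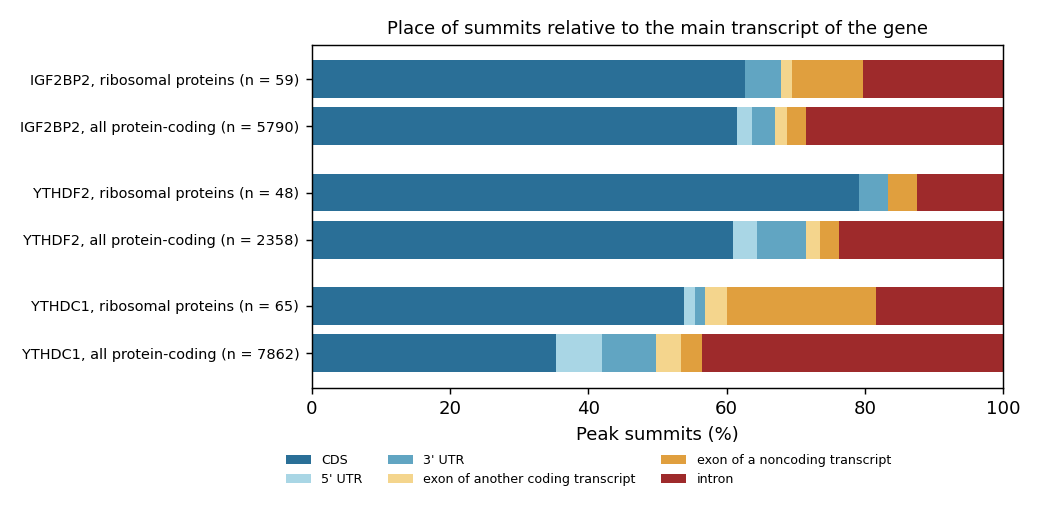
Place of peak summits relative to the main transcript (x axis, % of summits) for IGF2BP2, YTHDF2 and YTHDC1, with ribosomal protein genes above all protein-coding genes for each reader; colours are CDS, UTRs, exons of other transcripts and introns, as in the legend. CDS takes 62.7%, 79.2% and 53.8% of the ribosomal protein summits, and exons of noncoding transcripts take 21.5% for YTHDC1.

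Within the coding sequence the summits were spread along its whole length. The median summit lay at 45.6% of the CDS for IGF2BP2, 47.1% for YTHDF2 and 53.8% for YTHDC1. Of the 37 IGF2BP2 summits in CDS, 11 lay in the first, 15 in the middle and 11 in the last of 3 equal parts. YTHDF2 had 11, 18 and 9, and YTHDC1 had 8, 13 and 14. Summits within 100 nt of the stop codon, on either side of it, numbered 10 of the 40 IGF2BP2 summits in a main transcript. They numbered 9 of 40 for YTHDF2 and 11 of 37 for YTHDC1. They included the Rpl4 peaks of IGF2BP2 and YTHDF2, the last-exon peaks of Rpl8 and Rps9, and a YTHDC1 peak of Rpsa 19 nt before the stop. This stretch is a large part of a short CDS, and these counts were not set beside those of all protein-coding genes.

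**Figure D4:**
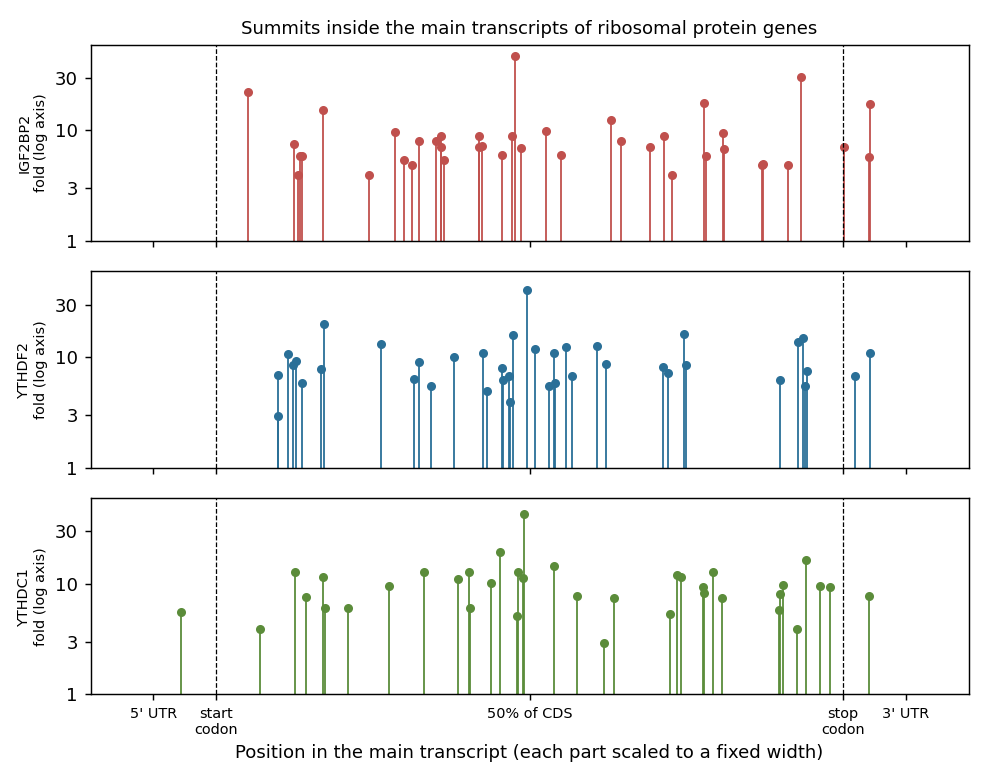
Position of summits in the main transcripts (x axis, 5' UTR, CDS and 3' UTR each scaled to a fixed width) against fold (y axis, log scale) for IGF2BP2, YTHDF2 and YTHDC1 from top to bottom, 1 stem per peak. Stems run along the whole CDS in each panel, with the highest, Rpl3, near its middle, and few lie outside the dashed start and stop codons.

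The few UTR summits in a main transcript included those of Rpl34, Rpl41 and Rps20. They are shown because they are exceptions to the coding sequence pattern. Rpl34 had a YTHDC1 peak with a pileup of 10 and a fold of 5.54 whose summit lay 63 nt before the start codon. Rps20 had an IGF2BP2 summit 34 nt after the CDS, with a pileup of 7 and a fold of 7.02. The lines give 29 bases around the summit, from the GENCODE M21 main transcripts with GRCm38 spans, and neither holds GGAC.
Rpl34, chr3:130730160-130730188 (-): gtgcgtaccggccgaggcctcggctcgta
Rps20, chr4:3834456-3834484 (-): gtcttaatggtcaaattttgctggctttt
The summits in the Rpl41 3' UTR, printed earlier, lay 60, 59 and 58 nt after the CDS for IGF2BP2, YTHDF2 and YTHDC1.

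Summits outside the main transcript numbered 19 of 59 for IGF2BP2 (32.2%), 8 of 48 for YTHDF2 (16.7%) and 28 of 65 for YTHDC1 (43.1%), against 33.0%, 28.5% and 50.2% in all protein-coding genes. For IGF2BP2 and YTHDF2 they lay close to an exon, at a median of 25 and 28 nt and at most 67 and 74 nt, and every such peak covered some exonic base. For YTHDC1 the median was 58 nt. It had 10 of 65 summits at least 100 nt from a main exon (15.4%, interval 7.63 to 26.5%), against 40.4% in all protein-coding genes. IGF2BP2 had 0 of 59, against 15.0% in all, and YTHDF2 0 of 48, against 14.2% in all. In all 3 lists such distant summits made up a smaller share in ribosomal protein genes than in all, and YTHDC1 had the largest share in both. How much intron lies that far from an exon, in these genes or in all, was not taken into account. The 10 YTHDC1 summits lay in Rpl10a, Rpl17, Rpl19, Rpl22, Rpl23, Rpl31, Rpl35a, Rpl37, Rps3 and Rps14. That of Rps14 was 7771 nt from the nearest exon of its main transcript and within the bounds of a longer annotated transcript.

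YTHDC1 summits in exons of noncoding transcripts of these genes, mostly transcripts with a retained intron, made up 14 of 65 (21.5%), against 3.07% in all protein-coding genes. For IGF2BP2 there were 6 (10.2%), against 2.71%, and for YTHDF2 2 (4.17%), against 2.71%. Summits in no annotated exon of the gene made up 18.5% for YTHDC1, against 43.6% in all. For IGF2BP2 this was 20.3% against 28.5%, and for YTHDF2 12.5% against 23.8%. How many noncoding transcripts are annotated, for these genes or for all, was not taken into account. Some of the 14 summits lay close to a main exon, such as 1 nt away in Rps3 and 6 nt in Rpl37a. Of the 12 genes with YTHDC1 peaks alone, 9 had no summit in the main transcript, against 1 of the 5 genes with IGF2BP2 alone and 0 of the 3 with YTHDF2 alone. These counts were not set beside those of all protein-coding genes with 1 reader alone. In all protein-coding genes, 50.2% of YTHDC1 summits lay outside the main transcript, against 33.0% for IGF2BP2 and 28.5% for YTHDF2. Rpl17, at the exit tunnel, had a YTHDC1 pileup of 39 and a fold of 16.1 in an intron 311 nt from an exon. Rpl35a had a pileup of 38 and a fold of 15.7 at 171 nt. Rpl36 had a pileup of 16 and a fold of 16.5 at 79 nt. The Rpl17 and Rpl36 summits lay in no exon of any annotated transcript, and that of Rpl35a lay in a retained-intron transcript. The lists hold no transcript level, so how much of the noncoding transcripts of these genes the cells held is not known here.

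The lines below show the strongest YTHDC1 places in exons of noncoding transcripts that no other reader shared, in Rpl35a and Rps23. They run 5′ to 3′ with GRCm38 spans and come from the noncoding transcripts of GENCODE M21. Rps23 has 78 bases because its transcript begins there.
Rpl35a, chr16:33056631-33056731 (+): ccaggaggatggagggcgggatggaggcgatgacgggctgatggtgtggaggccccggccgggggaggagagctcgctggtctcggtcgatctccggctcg
Rps23, chr13:90923217-90923294 (+): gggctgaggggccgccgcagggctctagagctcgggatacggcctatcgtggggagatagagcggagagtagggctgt
The summits lay 171 nt from a main exon in Rpl35a and 45 nt from one in Rps23. The folds were 15.7 and 12.8 at pileups of 38 and 16. Neither window held GGAC, and no annotated gene elsewhere held their central 51 bases. Rpl35a and Rps23 were rich in G and C, at 71.3% and 66.7%.

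Some summits assigned to ribosomal protein genes lay beside the snoRNAs in their introns. Exons ranked before introns, so a summit inside a snoRNA went to the snoRNA unless an exon of the host gene covered it. Such summits are not counted here, so the counts do not show how often peaks lay on these snoRNAs. Inside an annotated snoRNA or within 50 bp of one lay 2 IGF2BP2, 2 YTHDF2 and 3 YTHDC1 of the summits that were counted. All 3 readers had a summit at the same base beside Snord35a in Rpl13a, with pileups of 15, 14 and 11 and folds of 12.7, 12.5 and 8.92. YTHDF2 also had a peak beside Snord34 in Rpl13a, with a fold of 8.45. Snora52 in Rplp2 had an IGF2BP2 summit and a YTHDC1 summit inside it or within 50 bp. So did Snord15b in Rps3 for a YTHDC1 peak with a pileup of 31 and a fold of 5.11. The summits in Rplp2 and Rps3 lay in retained-intron exons of the host gene, and whether they fell inside the snoRNA was not recorded.

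Peaks of different readers met at the same places in ribosomal protein genes more often than in protein-coding genes as a whole. A peak of another reader overlapped 43 of 59 IGF2BP2 peaks (72.9%, interval 59.7 to 83.6%), against 45.8% in all. It overlapped 41 of 48 YTHDF2 peaks (85.4%, interval 72.2 to 93.9%), against 79.9%, which lies within the interval. It overlapped 38 of 65 YTHDC1 peaks (58.5%), against 31.6%. Chained by overlap, the 172 peaks formed 98 places in 50 genes. All 3 readers met at 22 places in 18 genes, and 21 of these 22 had a summit in the main transcript. IGF2BP2 alone had 16 places, YTHDF2 alone 7 and YTHDC1 alone 27. Shared peaks had the higher median fold, in ribosomal protein genes as in all protein-coding genes. The median fold of peaks that met both other readers, against those that met none, was 8.44 and 5.49 for IGF2BP2, 10.4 and 6.38 for YTHDF2, and 11.6 and 6.37 for YTHDC1. In all protein-coding genes it was 10.8 and 4.92, 6.95 and 3.96, and 9.70 and 5.89. Of the 27 places of YTHDC1 alone, 17 had no summit in the main transcript, a count not set beside that of all protein-coding genes.

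Much of the coding sequence of these genes exists in processed pseudogenes, which are reverse-copied mRNAs elsewhere in the genome. The 51 bases around the summit were found whole in an annotated transcript of another gene for 28 of 40 IGF2BP2 summits in a main transcript (70.0%), against 3.99% in all protein-coding genes. For YTHDF2 it was 31 of 40 (77.5%), against 6.71%, and for YTHDC1 24 of 37 (64.9%), against 3.69%. Of the 138 genes that held such a copy, 129 were pseudogenes. Whether reads over these stretches could be told apart from those of the copies was not tested, and how the authors treated such reads is not given in the sources used here. Of the windows printed, that of Rps2 had copies in 7 other genes, Rpl7 in 2 and Rpl3 and Rpl41 in 1, while Rpl4, Rps9 and Rps15 had none.

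The counts of genes with a peak when summits with such copies are left out were given above, with 6 genes in place of 19 for all 3 readers. Pseudogenes named for a ribosomal protein gene had peaks of their own. Of 294 annotated, 7 held a peak for IGF2BP2, 5 for YTHDF2 and 14 for YTHDC1, with folds up to 37.9, 27.6 and 30.7. Whether those reads arose from the parent gene was not tested.

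The local background behind the peaks was higher in ribosomal protein genes. It was computed as the pileup plus 1, divided by the fold, minus 1. Its median was 0.122 in ribosomal protein genes and 0.0244 in all protein-coding genes for IGF2BP2, 0.173 and 0.0194 for YTHDF2, and 0.313 and 0.0658 for YTHDC1. It reached 1 or more at 3 IGF2BP2, 4 YTHDF2 and 10 YTHDC1 peaks, among them those of Rps2, Rps3, Rplp1 and Rplp2. Rps2 had an IGF2BP2 background of 3.78, a YTHDF2 background of 2.90 and a YTHDC1 background of 5.10, so pileups as high as 78 gave folds of 13.0 and less. In Rpl3 a pileup of 70 stood over a background of 0.488 and gave a fold of 47.7. Its part in how often these genes had peaks was not tested.

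**Figure D5:**
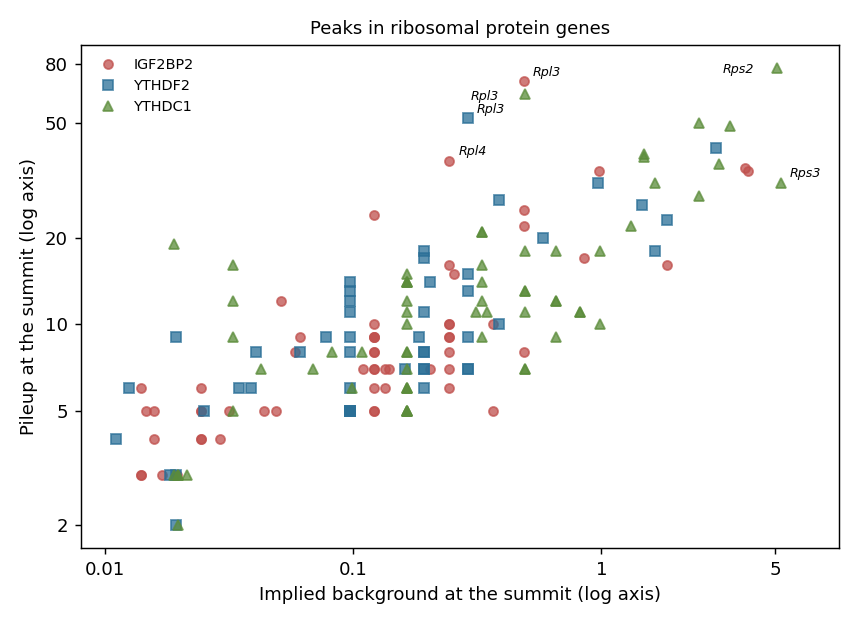
Pileup at the summit (y axis, log scale) against the implied background (x axis, log scale, in pileup units) for the 172 peaks in ribosomal protein genes; red circles are IGF2BP2, blue squares YTHDF2 and green triangles YTHDC1. Rpl3 and Rpl4 lie high over a background below 1, while Rps2 and Rps3 at the right have a background above 5 for YTHDC1.

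The share of summits with the motif GGAC in ribosomal protein genes had, for each reader, an interval that covered the share over all protein-coding genes. With 50 bases on either side of the summit, on the sense strand, it was present at 15 of 40 IGF2BP2 summits (37.5%, interval 22.7 to 54.2%), against 42.7% in all protein-coding genes. It was present at 17 of 40 YTHDF2 summits (42.5%), against 41.6%, and at 15 of 37 YTHDC1 summits (40.5%), against 42.4%. Of 15 places with summits of all 3 readers in the main transcript, 5 held it (33.3%, interval 11.8 to 61.6%). A window without GGAC says only that these 4 letters are not in it.

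At the other end of the mRNA, a C followed by 5 pyrimidines within 10 bases of the RefSeq start on the sense strand, the letters of a TOP element, was found in 33 of 68 promoters of ribosomal protein genes (48.5%), against 18.5% of 32851 promoters. Counted by gene, with any promoter, it was in 32 of 56. It was found in 21 of 37 genes with a peak (56.8%) and in 11 of 19 without (57.9%).

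Other genes of the ribosome and of its making showed which of their number carried peaks. Of 78 mitochondrial ribosomal protein genes, which serve the organelle's own ribosome, IGF2BP2 had a peak in 2, YTHDF2 in 2 and YTHDC1 in 8, with a highest fold of 7.81. None had all 3, and these counts lie below the shares of all protein-coding genes given above. Length was not matched in that comparison. In genes of a length like that of the cytoplasmic ribosomal protein genes the shares were lower, at 2.78%, 1.97% and 5.13%. Of 7 other proteins of the cytoplasmic ribosome that the naming rule left out, 2, 3 and 5 had peaks, beside 12.8%, 7.2% and 19.9% of all. Only Fau, a fusion that yields a small subunit protein, had all 3, with folds of 7.13, 13.7 and 19.8, beside 5.02% of all. Of 19 other transcripts known as TOP RNAs, among them elongation and initiation factors, 13, 14 and 16 had peaks, beside 12.8%, 7.2% and 19.9% of all. All 3 readers had peaks in 11 of them, beside 5.02% of all. Pabpc1, the poly(A)-binding protein, had the highest fold of them in each list, with 43.2, 25.2 and 29.6. Of 33 ribosome assembly genes, 22, 16 and 21 had peaks, beside the same shares of all, and 15 had all 3, beside 5.02% of all. Nop56, a snoRNP core protein, had the highest IGF2BP2 fold of these, 46.1, Ubtf, a factor of rRNA transcription, the highest YTHDF2 fold, 24.6, and Rrp1 the highest YTHDC1 fold, 40.4. Mdm2, which Rpl5 and Rpl11 bind, had folds of 21.7, 8.89 and 3.92, and Trp53 had a YTHDC1 peak alone with a fold of 3.87.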

How the data were processed

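RNA from 3 immunoprecipitates was described from 1 peak list each, and no separate input track was used here. The submitters' processing notes name the build GRCm38 and the tools HISAT2, Trim Galore and bcl2fastq 2.17. The peak caller is not given in the sources used here. The deposited lists give, per peak, a fold (a ratio of pileup over local background), the −log10 of a p-value and of a q-value, and a score. The pileup signal at the summit is named per the file headers. These are the authors' values and were compared only among peaks of the same list. Sequencing depth is unknown. The lists carry no strand, so overlapping and antisense genes cannot be told apart. Several genes lay under 16 of the 172 summits.

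Summits were assigned with GENCODE M21, exon before intron and protein-coding before other types, in Python 3.11.15 with numpy 2.4.6 and scipy 1.17.1. On 200 simulated summits the assignment recovered 200. The main transcript is the APPRIS principal one, then that with the longest CDS. The implied background assumes a pseudocount of 1 in the fold. Promoters span 250 bases before to 50 after the RefSeq start in GRCm38.p6. The 76 genes, the gene lists and the alternatives were chosen with earlier results of these data known. Named genes are those of highest fold per reader, with UTR summits, with all 3 readers or with 1 reader alone, and list examples by fold. Some genes and sequences that this rule takes are not reported here.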

Additional observations from a re-analysis of the deposited data

How the results depend on the processing

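With a −log10 q, a fold or a pileup of at least 5, all 31 results kept to within 1.5 times their count or within their spread. The same held for exonic summits alone, any overlap of the peak with the gene and summits under no other gene (10 of 10 results each), and for CDS before UTRs, overlap of 50% of the shorter peak and summits within 50 bp (3 of 3 each). With lists cut to equal length by q, 20 of 31 results moved. Genes with a peak were then 16 for IGF2BP2 and 22 for YTHDC1, with 12 for all 3 readers. Large subunit genes numbered 9 and 13 and small subunit genes 7 and 9. Peaks numbered 22 and 27, exonic peaks 19 and 24 and CDS peaks 13 and 14. Overlapping peaks numbered 17, 25 and 17 for IGF2BP2, YTHDF2 and YTHDC1. The median fold was 9.57 and 12.8 and the median pileup 13.5 and 18 for IGF2BP2 and YTHDC1. The shorter lists keep fewer and stronger peaks by construction. In windows of 51 bases GGAC was present at 22.5% of YTHDF2 and 21.6% of YTHDC1 summits, against 23.8% and 24.5% in all protein-coding genes with the same windows. Without exonic summits whose sequence has a copy elsewhere, an alternative added after seeing the data, genes with a peak were 21 for IGF2BP2 and 12 for YTHDF2, with 6 for all 3 readers, and peaks were 31, 17 and 41 for IGF2BP2, YTHDF2 and YTHDC1.

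No paired analysis was possible because each reader has 1 library. For the same reason no difference between readers or gene groups has a replicate check, depth and library quality cannot be told apart from the reader, and a gene without a peak was not detected at this unknown depth, not shown to be unbound. At bases that are summits in 2 lists, the 2 implied backgrounds stood in the same ratio as the smallest ones of their lists, to within 1%, in 6 of 6, 2 of 2 and 2 of 2 cases in these genes, so the lists share 1 background track and are not independent.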
